A study of Homo sapiens with 6 samples.

Results

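The 9 genes described here are keratins of epithelial cells, KRT7, KRT8, KRT10, KRT15, KRT18, KRT19, KRT20, KRT23 and KRT80, chosen by name from a table of read counts for 60664 Ensembl gene IDs. Each of the 9 matched 1 row of that table. RNA was sequenced from the human colorectal cancer line HCT-8, in 2 groups of 3 libraries. One group was transfected with the plasmid labelled shNC, the control, and the other with the plasmid labelled shPNISR, named for a short hairpin RNA against PNISR, a serine and arginine rich nuclear protein. The labels name no dose, no time after transfection and no clone, and do not say whether each library had its own culture. The p-values here therefore set the difference between groups against the spread among these libraries. That spread may be technical, so the p-values may not extend to new cultures. Total counts ranged from 15049485 to 17977803 per library. The purpose stated for the series is alternative splicing under PNISR; counts per gene hold expression and not isoform usage, which was not analysed here.

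Keratins form the intermediate filaments of epithelial cells. Each filament pairs a type I chain with a type II chain, and a chain without a partner is degraded, so the types are usually made in matched amounts. KRT8 (type II) and KRT18 (type I) are the founding pair of simple epithelia, including the gut lining, and KRT19 and KRT20 are the other type I chains known from intestinal epithelium. KRT20 together with absent KRT7 is a pattern used in pathology to recognise colorectal tumours. KRT10 and KRT15 are better known from stratified epithelia, KRT10 in differentiating and KRT15 in basal layers, while KRT23 and KRT80 are less studied members reported in several carcinomas. Of the 9 genes, 3 are type II (KRT7, KRT8, KRT80, all on chromosome 12) and 6 are type I. Of the type I genes, KRT18 lies on chromosome 12 beside KRT8, and the other type I members lie on chromosome 17. In GENCODE 29 on GRCh38, KRT80 (ENSG00000167767) spans 52168996 to 52192000 on chromosome 12. On chromosome 17, KRT10 (ENSG00000186395) spans 40818117 to 40822595, KRT20 (ENSG00000171431) 40875941 to 40885227, KRT23 (ENSG00000108244) 40922696 to 40937634 and KRT15 (ENSG00000171346) 41513743 to 41522529.

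KRT8 and KRT18 have many processed pseudogenes, copies of their mRNA elsewhere in the genome, and this bears on how far their counts can be read. In the principal transcript of KRT8, 32.74% of all 50-base windows also occurred letter for letter in a GENCODE 29 transcript of another gene, and in that of KRT18 31.79% did. For KRT19 the share was 1.79%, for KRT7 1%, for KRT80 0.42% and for KRT15 0.33%, and for KRT10, KRT20 and KRT23 it was 0. The stretches below show how close such a copy is. They hold 60 bases of the coding sequence of KRT8 (bases 543 to 602 of 1449) beside the matching part of KRT8P45 on chromosome 1. For KRT18 (bases 938 to 997 of 1290) the copy is KRT18P11 on chromosome X. Both were chosen for their many shared coding windows, from a part of the pseudogenes only. KRT8P3, not shown, shared the most windows with the principal KRT8 transcript (395) and held 186 to 278 counts per library. Capitals mark the bases that differ, all are written 5′ to 3′ on the strand of the gene, and the letters are those of the GENCODE 29 transcripts on GRCh38.
KRT8: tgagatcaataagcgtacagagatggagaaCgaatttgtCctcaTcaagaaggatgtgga
KRT8P45: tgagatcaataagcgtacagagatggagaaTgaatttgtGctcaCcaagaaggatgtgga
KRT18: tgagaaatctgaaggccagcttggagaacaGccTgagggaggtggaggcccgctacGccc
KRT18P11: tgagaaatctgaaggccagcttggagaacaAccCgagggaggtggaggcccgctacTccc
Each pair differs at 3 of 60 bases, and the longest run without a difference, which ends at the first capital, is 114 bases for KRT8 and 86 bases for KRT18. Few reads were assigned to the copies. All KRT8 pseudogenes together held 304 to 381 counts per library, or 0.751 to 0.986% of the KRT8 count, and all KRT18 pseudogenes held 13 to 22 counts, or 0.056 to 0.091% of the KRT18 count. The KRT19 copies held at most 2. How reads with several possible places were treated was not stated in the labels. Adding the pseudogene counts to their parents left the fold changes given below at 0.25 for KRT8, 0.25 for KRT18 and 0.61 for KRT19.

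The label of epithelial, colorectal cells was checked on markers. Of 10 colorectal epithelial markers 8 were tested, among them EPCAM (118.9 ± 24.2 CPM in shNC, mean ± SD, n = 3) and CDX2 (80.3 ± 10.4 CPM), and the defining antigens CEACAM5 and GPA33 were near 0, with at most 3 and 6 reads in a library. CPM are counts per 1000000 after scaling of the libraries by the trimmed mean of M values (TMM). The summed level of the epithelial markers was 613.4 to 677.7 CPM in shNC and 753.5 to 809.8 CPM under shPNISR. Of the 8, edgeR called CDH17 (adjusted p = 5.74e-05) and CLDN7 (adjusted p = 0.0457) higher and CDX1 lower (adjusted p = 0.00798). Of all tested genes 2.3% were called higher and 0.832% lower. Only 1 of the 8 was called higher with library totals as scaling or with the GC and length correction described below. The same held without shNC 1, shPNISR 1, shPNISR 2 or shPNISR 3. DESeq2 and limma voom each called 3 higher, as did edgeR without shNC 2 or shNC 3. The part of these marker shifts in the keratin values was not tested. Markers of other cells were low. The 8 fibroblast markers summed to 16.89 to 25.51 CPM in shNC and 25.24 to 29.61 CPM under shPNISR. Most of this was COL1A1 (13.75 to 20.33 CPM in shNC and 20.03 to 24.81 CPM under shPNISR), and DCN and THY1 had 0 to 4 reads per library. Calls by edgeR, DESeq2 or limma voom were 0 of 5 tested (1 at an unadjusted p under 0.05, against 2862 of all 16102 tested genes). Without shNC 2, edgeR called 2 of these 5 higher (7.78% of all tested genes), and with no low-count filter 1 of 7 (2.17%). The part of fibroblast markers in the keratin values was not tested. In the same order of groups, the 5 endothelial markers summed to 0.7176 to 1.489 CPM and 1.41 to 1.658 CPM. The 6 leukocyte markers summed to 3.533 to 4.855 CPM in shNC and 4.086 to 5.582 CPM under shPNISR; of 3 tested, LYZ was called lower (16, 21 and 21 reads against 1, 5 and 8), but it passed the filter only through the shNC libraries and so had to be lower under shPNISR. The defining leukocyte marker PTPRC had 0 reads in every library. The 9 markers of stratified squamous epithelium found in the table summed to at most 1.23 CPM in a library. Most of this was KRT13, with 7 to 16 reads per library, and KRT1, KRT5 and KRT14 had 0 to 2 reads in every library. In bulk RNA, fewer cells of a kind and less RNA per cell cannot be told apart.

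PNISR itself was at 55.31, 50.24 and 62.8 CPM in the shNC libraries and at 18.53, 20.65 and 27.6 CPM in the shPNISR libraries. It fell by 1.33 ± 0.15 (SE) on the log2 scale (edgeR quasi-likelihood test, Benjamini-Hochberg adjusted p = 8.73e-05). One control library stands apart: on principal component 1 of all tested genes, shNC 2 took a place between both groups (0.787, against -35.2 and -31.2 for shNC 1 and 3 and 16.9 to 24.6 for shPNISR; 44.8% of the variance). Keratin fold changes are therefore given with and without it.

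The keratins ranged from among the most abundant mRNAs to the limit of detection. KRT8 and KRT18 took 86.61 to 90.56% of all reads on the 9 keratins and KRT19 another 8.15 to 12.12%. KRT8 had a mean of 2447 CPM over the 6 libraries and ranked 24 among 16102 tested genes, KRT18 had 1620 CPM and ranked 46, and KRT19 had 490.9 CPM and ranked 244. KRT10 (28.56 CPM) and KRT80 (18.18 CPM) were of middle level, above 57.28% and 47.19% of tested genes. KRT7 (4.446 CPM) and KRT15 (1.509 CPM) were low, and KRT23 (0.9027 CPM) and KRT20 (0.2344 CPM) lay lowest. Per kilobase of all annotated exons the order in shNC was KRT18 (459.1 ± 29.9 CPM per kb), KRT8 (325.4 ± 15.1), KRT19 (166.3 ± 40.5), KRT10 (12.65 ± 1.88), KRT80 (3.63 ± 0.42), KRT7 (1.09 ± 0.07), KRT15 (0.169 ± 0.049), KRT23 (0.147 ± 0.163) and KRT20 (0.0667 ± 0.0704). The last 3 do not differ beyond their spread. KRT18 and KRT8 change places when the length of the principal transcript is used (945.8 ± 61.5 against 1053 ± 48.8 CPM per kb), so the order of these 2 depends on the length chosen.

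**Figure D1:**
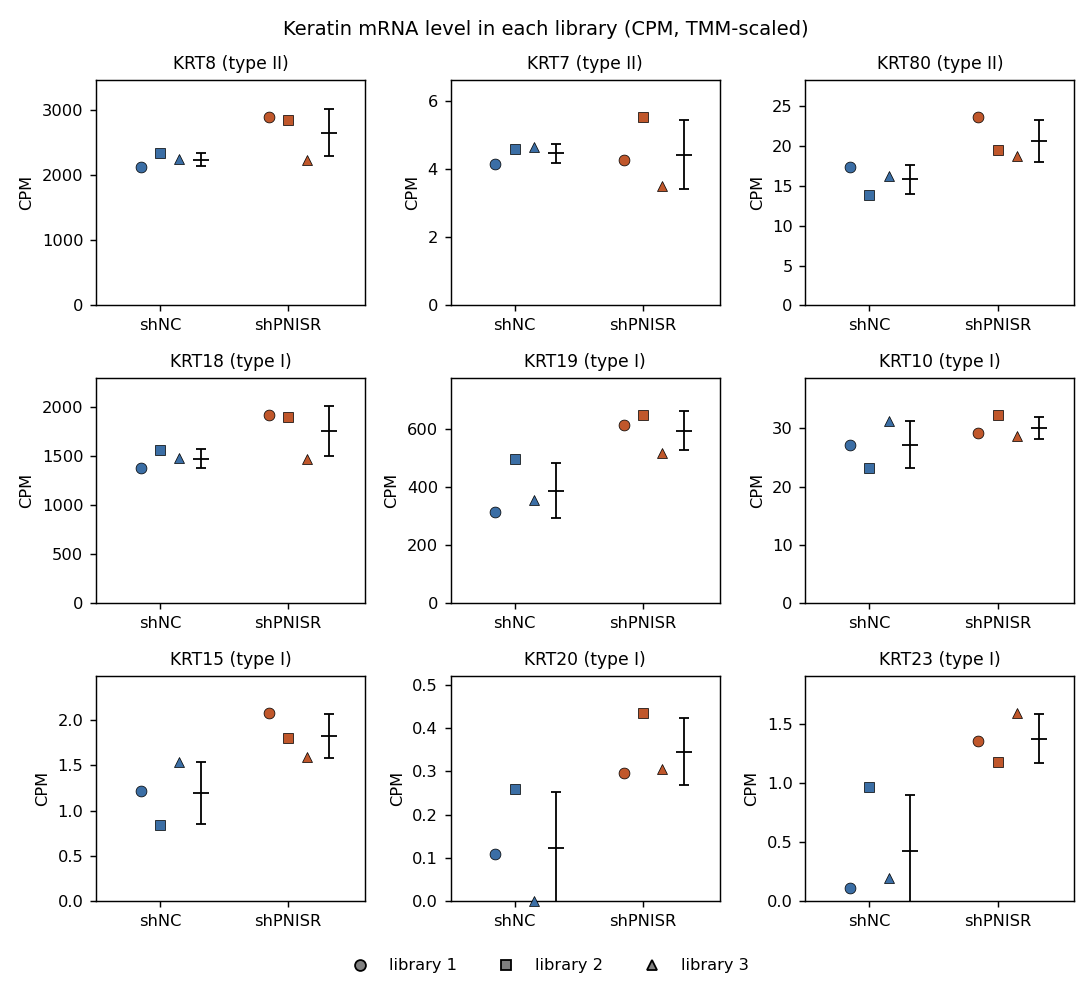
TMM-scaled CPM (vertical axes, each from 0 and each with its own range) of the 9 keratins in the 3 shNC (blue) and 3 shPNISR (orange) libraries; circle, square and triangle are libraries 1, 2 and 3, and the black bar is the mean ± SD (n = 3), cut at 0 where it runs below. KRT19 is between 315.4 and 495.2 CPM in shNC and between 518.2 and 646.9 CPM under shPNISR, and in KRT8 and KRT18 the third shPNISR library lies among the controls.

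Keratin levels with PNISR lowered were compared with those in the controls. Of the 9 keratins 8 passed the filter on low counts and were tested; 1 rose (KRT19), 0 fell and 7 did not pass. Of all 16102 tested genes 2.3% were called higher and 0.832% lower, 3.14% in all. At an unadjusted p under 0.05 there were 3 keratins (KRT19, KRT23 and KRT80), and 2862 of all 16102 tested genes. Groups did not overlap, with shPNISR higher, in 4 of the 8 (KRT15, KRT19, KRT23 and KRT80), against 11.5% of all tested genes (9.58% did not overlap with shPNISR lower), but KRT23 passed the filter only through the shPNISR libraries and so had to be higher there. Of the 8 fitted values 7 were above 0, with a median of 0.318 on the log2 scale. Over all tested genes 47.9% were above 0 and the median was -0.0127. KRT23 enters the keratin counts too. DESeq2 also called KRT19 alone, and limma voom called KRT19 and KRT23.

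KRT19, the smallest keratin and a type I chain of simple and ductal epithelia, was at 315.4, 495.2 and 354.4 CPM in the controls shNC 1, 2 and 3 and at 615.2, 646.9 and 518.2 CPM in shPNISR 1, 2 and 3. The groups do not overlap, and shNC 2 was the highest control, just below the lowest shPNISR library. The log2 fold change was 0.61 ± 0.15 (SE), a 1.53-fold rise (edgeR's quasi-likelihood test; adjusted p = 0.0365 by Benjamini-Hochberg). Leaving out shNC 2 raised it to 0.82 ± 0.13 (adjusted p = 0.000321). The call was lost under other settings: without shNC 1 it was 0.48 (adjusted p = 0.169), without shPNISR 1, 2 or 3 it was 0.60, 0.54 or 0.70 (adjusted p = 0.159, 0.0955 or 0.0571), and after each library was corrected for GC content and gene length it was 0.41 (adjusted p = 0.0923). With that correction and without shNC 2 it was 0.56 and passed (adjusted p = 0.00258). KRT19 (ENSG00000171345) lies at 41523617 to 41528308 on chromosome 17 of GRCh38 (minus strand), overlaps no other gene of GENCODE 29 and shares few windows with its pseudogene, so of the 3 abundant keratins its count is the least open to shared reads.

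**Figure D2:**
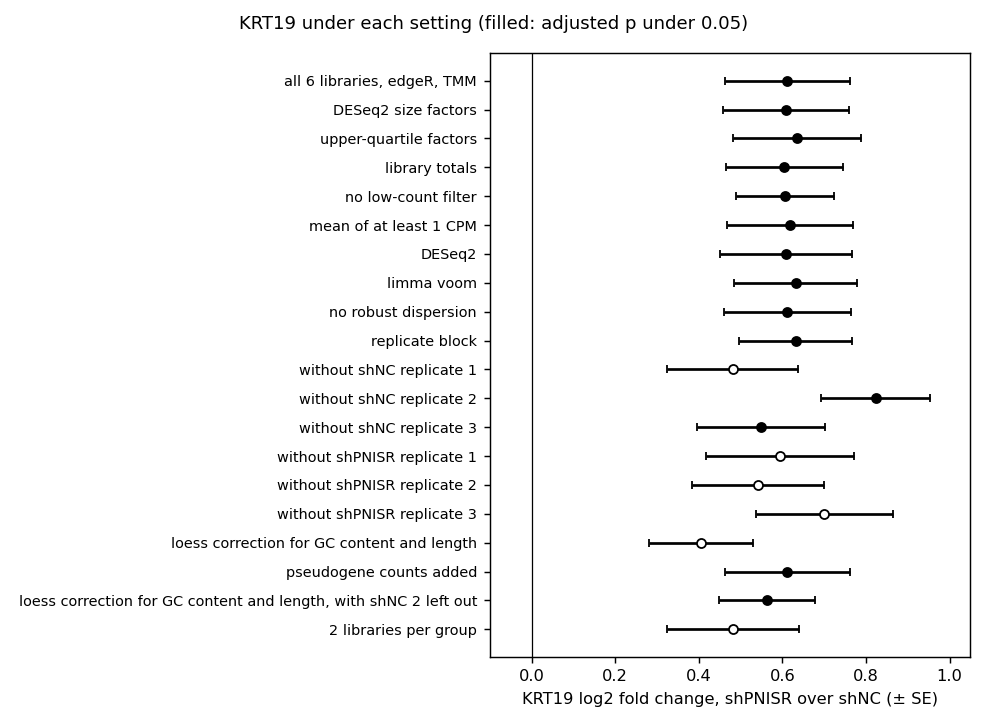
Log2 fold change of KRT19, shPNISR over shNC, with its SE (horizontal axis), under each setting (vertical axis); filled points have an adjusted p under 0.05. Every value is above 0, from 0.405 to 0.823, and 6 of the 19 alternatives do not pass.

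KRT8, the type II chain of the simple epithelial pair, was at 2129, 2335 and 2254 CPM in shNC and 2887, 2843 and 2233 CPM under shPNISR. KRT18, its type I partner, was at 1377, 1569 and 1486 CPM in shNC and 1919, 1899 and 1469 CPM under shPNISR. Both had the same shape: shPNISR 1 and 2 lay above every control, and shPNISR 3 lay within the control range, so the groups overlap. The log2 fold changes were 0.25 ± 0.13 for KRT8 (edgeR adjusted p = 0.325, 95% interval -0.02 to 0.51) and 0.25 ± 0.13 for KRT18 (edgeR adjusted p = 0.307, 95% interval -0.01 to 0.52), intervals that hold 0 but do not show that the pair stayed level. Without shNC 2 they were 0.27 and 0.30 (adjusted p = 0.225 and 0.181). Neither passed under any of the 19 alternatives; the lowest adjusted p of the pair was 0.104, without shPNISR 3. KRT8 (ENSG00000170421, minus strand, 52897187 to 52949954) and KRT18 (ENSG00000111057, plus strand, 52948871 to 52952901) stand on opposite strands of chromosome 12, and in GENCODE 29 annotated exons of KRT8 share 525 bases with those of KRT18, which is 7.63% of the exon bases of KRT8 and 16.31% of those of KRT18. No source names a strand setting, and without one reads there cannot be told apart.

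The KRT8 to KRT18 ratio held within a narrow range. There were 1.546, 1.488 and 1.516 KRT8 reads per KRT18 read in the controls and 1.505, 1.497 and 1.52 under shPNISR. On the log2 scale per kilobase of exon, shPNISR minus shNC was -0.009 ± 0.017 (SE, n = 3 per group; exact permutation test, two-sided, p = 0.7, and 0.7 adjusted over the 2 ratios planned, 0.1 being the lowest p possible with 3 against 3). The sums of type II over type I chains differed by -0.11 ± 0.05 (exact permutation test, two-sided, p = 0.2, adjusted 0.4). With the length of the principal transcript this difference was -0.102. The level of each ratio depends on the length chosen, so only differences between libraries are read. In shNC, KRT8 lay above KRT18 with the principal transcript length (1053 against 945.8 CPM per kb) and below it with all exons. In that ratio shNC 2 (-1.05) lay with the shPNISR libraries (-1.04, -1.07 and -1.07), and shNC 1 and 3 were at -0.87 and -0.92. KRT19 relative to KRT18 was examined after the values had been seen and is given with no test: there were 22.91, 31.57 and 23.85 KRT19 reads per 100 KRT18 reads in shNC and 32.06, 34.06 and 35.27 in shPNISR. Here shNC 2 again sits close to the shPNISR libraries. On the log2 scale the KRT19 to KRT18 ratio was 0.386 ± 0.151 (SE) higher in shPNISR, while shPNISR 3, which was low in both genes, had the highest ratio.

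**Figure D3:**
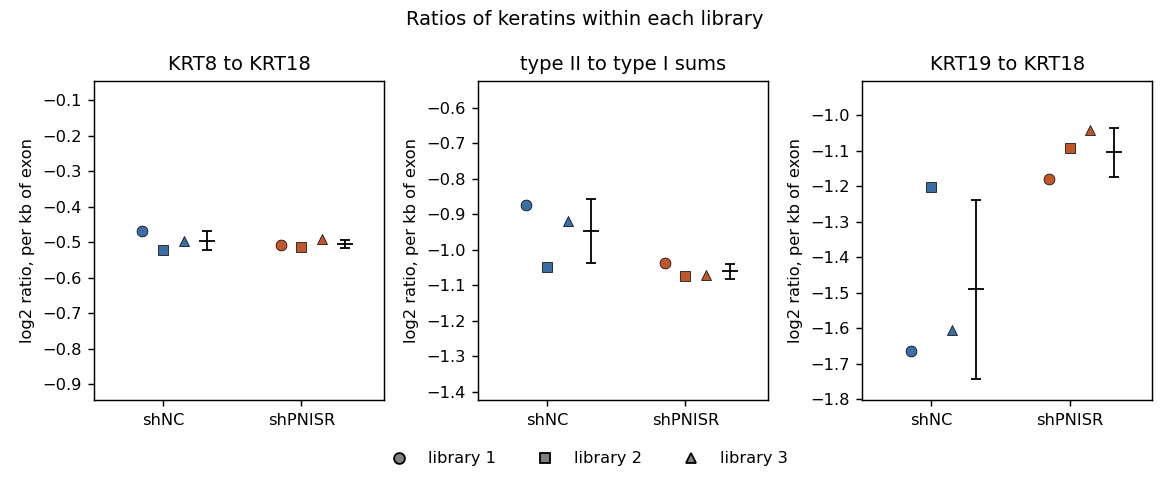
Log2 ratios of counts per kilobase of exon within each library (vertical axes, all spanning the same range), for KRT8 to KRT18, the sum of type II to the sum of type I chains, and KRT19 to KRT18; symbols mark libraries 1 to 3 and bars the mean ± SD (n = 3). KRT8 to KRT18 stays between -0.523 and -0.468, and shNC 2 is near the shPNISR libraries in the other panels. Lengths are of all annotated exons, and the level of each ratio depends on that choice.

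All 9 keratins together took 0.3901, 0.442 and 0.4139% of counts in the controls and 0.5351, 0.5326 and 0.444% under shPNISR. The means were 0.415 ± 0.026% and 0.504 ± 0.052% (SD, n = 3; exact permutation test, two-sided, p = 0.1, the smallest that 3 against 3 allows). These shares are of unscaled library totals, in which the groups did not overlap, but shPNISR 3 and shNC 2 were close. On the TMM scale (factors 1.04 and 0.9964) the sum of the 9 was lower in shPNISR 3 than in shNC 2, so the groups overlap. There KRT8 was at 2233 against 2335 CPM and KRT18 at 1469 against 1569 CPM, while KRT19 was at 518.2 against 495.2 CPM. The exact permutation test used the unscaled shares only. It was not among those planned, and its p is not adjusted.

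KRT80, a type II chain linked to desmosomes, was at 17.39, 13.79 and 16.18 CPM in shNC and 23.57, 19.47 and 18.7 CPM under shPNISR. It was higher in every shPNISR library, by 0.38 ± 0.15 on the log2 scale, and did not pass (edgeR adjusted p = 0.196, 0.225 without shNC 2). Unlike KRT19, KRT80 was lowest among all libraries in shNC 2. KRT7, a type II chain of ductal epithelia, was at 4.14, 4.596 and 4.662 CPM in shNC and 4.264, 5.52 and 3.495 CPM under shPNISR. Its groups overlap on both sides and its fold change was -0.01 ± 0.23 (edgeR adjusted p = 0.987, 95% interval -0.49 to 0.47; 0.01 without shNC 2). KRT7 (chromosome 12, 52232520 to 52252186) overlaps KRT7-AS and other keratin genes, and 6.89% of its exon bases are shared with the antisense gene.

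KRT10, the type I chain of differentiating epidermis, was at 27.1, 23.11 and 31.17 CPM in shNC and 29.13, 32.19 and 28.64 CPM under shPNISR. The groups overlap and the fold change was 0.14 ± 0.14 (edgeR adjusted p = 0.625; 0.04 without shNC 2). KRT10 overlaps the antisense gene KRT10-AS1 (ENSG00000167920), which held 301 to 424 counts per library beside 357 to 519 for KRT10, and adding these counts gave 0.18 (edgeR adjusted p = 0.469). KRT15, a type I chain of basal cells, was at 1.214, 0.8416 and 1.532 CPM in shNC and 2.073, 1.799 and 1.594 CPM under shPNISR, from 13 to 35 reads. The groups do not overlap by a small margin, between shNC 3 and shPNISR 3, and the fold change of 0.61 ± 0.33 did not pass (edgeR adjusted p = 0.345; 0.41 without shNC 2, adjusted p = 0.459). KRT15 has about the fold change of KRT19 with a standard error that is wider at these few reads.

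KRT23 and KRT20 are at the edge of what this depth can show. KRT23, a type I chain, had 2, 15 and 3 reads in shNC 1, 2 and 3 and 23, 19 and 26 in the shPNISR libraries. It was higher in every shPNISR library than in every control, but 15 of the 20 control reads came from shNC 2. The fold change was 1.71 ± 0.53 on the log2 scale and did not pass (edgeR adjusted p = 0.0908). Without shNC 2, which leaves controls with 2 and 3 reads, it was 3.12 ± 0.57 and passed (edgeR adjusted p = 0.00108). In that setting 7.78% of all tested genes were called higher. With all libraries, limma voom (2.17, adjusted p = 0.0317) and edgeR with no low-count filter (1.70, adjusted p = 0.0107) called it. They called 2.63% and 2.17% of all tested genes higher. KRT23 passed the filter only through the shPNISR libraries and so had to be higher there, so nothing is read from the calls after that filter. KRT20, the intestinal type I chain used in colorectal diagnosis, had 2, 4 and 0 reads in shNC and 5, 7 and 5 in shPNISR, 23 in all, and was left out of the test by the filter; 1 read separates the groups. With no filter its fold change was 1.42 ± 0.85 and did not pass (edgeR adjusted p = 0.52). KRT20 is too low to judge; KRT23 and KRT15 can be judged only for large changes.

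**Figure D4:**
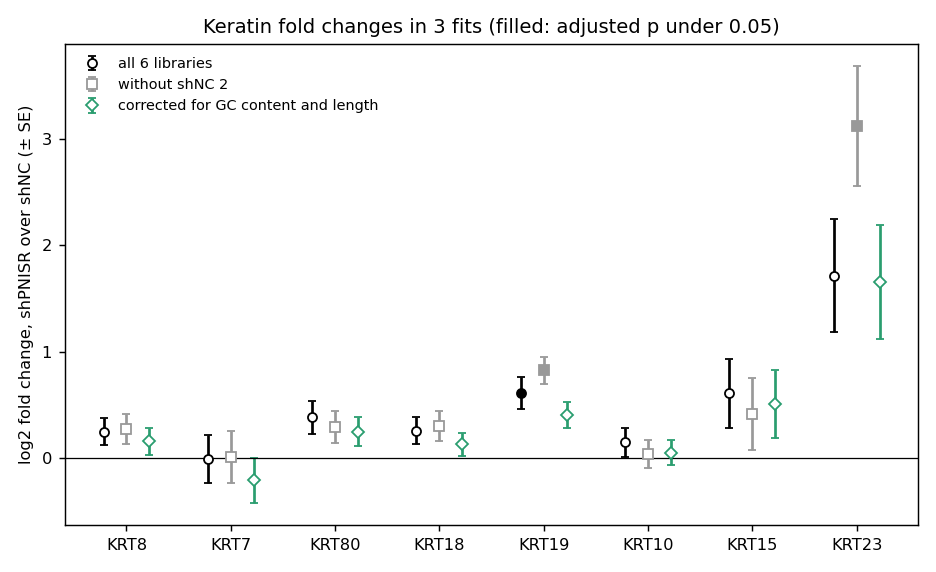
Log2 fold change, shPNISR over shNC, with its SE (vertical axis) of the 8 tested keratins with all 6 libraries, without shNC 2, and after correction for GC content and gene length; filled symbols have an adjusted p under 0.05. KRT19 passes with all libraries and without shNC 2 but not after the correction, and KRT23 passes without shNC 2, where it moves from 1.71 to 3.12. KRT23 passed the low-count filter only through the shPNISR libraries and so had to be higher there.

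Across the 6 libraries the genes whose log2 CPM followed KRT19 most closely, of 11685 with a mean of at least 5 CPM, were RRAS (Pearson r = 0.998), CDKN1A (0.997) and ALDH1A3 (0.995). This is a description: the points share the 2 groups and the position of shNC 2, and 800 genes had r above 0.9. Like KRT19, RRAS had its highest control level in shNC 2 (20.2, 33.86 and 23.38 CPM in shNC and 43.52, 43.91 and 36.61 CPM under shPNISR).

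The remaining keratins of the table were nearly silent. Of 46 other keratin genes 20 had no read in any library, and all 46 together held 62 to 161 reads per library. Only KRT4, KRT17 and KRT71 passed the filter. Calls by edgeR, DESeq2 and limma voom were 0 of the 3 (1 at an unadjusted p under 0.05, against 2862 of all 16102 tested genes). KRT71, a hair follicle keratin, had 24, 15 and 19 reads in shNC and 44, 43 and 33 in shPNISR, a fold change of 1.03 ± 0.30 (edgeR adjusted p = 0.0698). KRT17, an inducible keratin of stressed epithelia, had 15, 23 and 5 reads in shNC and 23, 14 and 16 in shPNISR, and its groups overlap.

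Genes that anchor keratin filaments, or bind them, were read from lists. Desmosomes tie keratins to cell junctions through desmoplakin, plakoglobin and plakophilins: of 17 genes 14 were tested, 0 rose and 0 fell by edgeR, and the median log2 fold change was 0.037. At an unadjusted p under 0.05 there were 4 higher and 3 lower, against 2862 of all 16102 tested genes in either direction. DESeq2 called 1 higher and 1 lower (2.96% and 1.42% of all tested genes), and limma voom called 0. PERP, a desmosomal membrane protein, was at 397 ± 41.9 CPM in shNC and 448 ± 47.9 CPM under shPNISR, and DSP, desmoplakin, at 248 ± 56.7 and 241 ± 43.6 CPM (SD, n = 3). Without shNC 2, 3 members were called higher and 1 lower; in that setting 7.78% of all tested genes were called higher and 4.52% lower. Of 6 genes of hemidesmosomes and basal anchorage, all were tested, 1 rose and 0 fell, against 2.3% and 0.832% of all tested genes. All 6 fitted values were above 0, against 47.9% of all tested genes (median 0.314, against -0.0127). DESeq2 and limma voom each called 2 higher and 0 lower, where 2.96% and 2.63% of all tested genes were called higher. So did edgeR without shNC 2, where 7.78% of all tested genes were called higher. LAMB3, the beta chain of laminin-332, was at 40.85, 56.13 and 37.29 CPM in shNC and 83.02, 79.08 and 71.5 CPM under shPNISR, a rise of 0.80 ± 0.14 (edgeR adjusted p = 0.00406). The groups do not overlap, and the call held under all 19 alternatives.

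Among 15 other intermediate filament genes 13 were tested, 4 rose, 0 fell and 9 did not pass (median log2 fold change 0.305). Of all tested genes 2.3% were called higher and 0.832% lower. DESeq2 called 4 higher and 2 lower, against 2.96% and 1.42% of all tested genes. The GC and length correction gave the same counts, against 1.85% and 1.17% of all tested genes. Without shNC 2 there were 6 higher and 2 lower, against 7.78% and 4.52% of all tested genes. LMNA, which encodes the nuclear lamins A and C, was at 347.7, 410.2 and 368.2 CPM in shNC and 598.1, 579 and 494.4 CPM under shPNISR, a rise of 0.57 ± 0.12 (edgeR adjusted p = 0.00957). NES, nestin, rose from 34.5 ± 1.65 to 52.1 ± 2.51 CPM (edgeR adjusted p = 0.00798). DES, the muscle filament desmin, rose from 0.994, 2.85 and 1.33 CPM to 7.46, 8.81 and 6.07 CPM (2.12 ± 0.31, edgeR adjusted p = 0.00106), and PRPH, the neuronal filament peripherin, from 2.04, 1.94 and 2.2 CPM to 5.03, 5.02 and 5.46 CPM (1.32 ± 0.23, edgeR adjusted p = 0.00322). Both remained far below the abundant keratins. VIM, vimentin, the filament of mesenchymal cells and the most abundant of the list, did not pass: it had 549.6, 822.6 and 614.7 CPM in shNC and 605.9, 685.8 and 566.1 CPM under shPNISR (-0.10 ± 0.14, edgeR adjusted p = 0.764), with its highest level in shNC 2. The call of LMNA ended without shNC 1 or shPNISR 1 (adjusted p = 0.0757 and 0.0925), and that of NES without shPNISR 1 or with 2 libraries per group (adjusted p = 0.0613 and 0.0625).

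**Figure D5:**
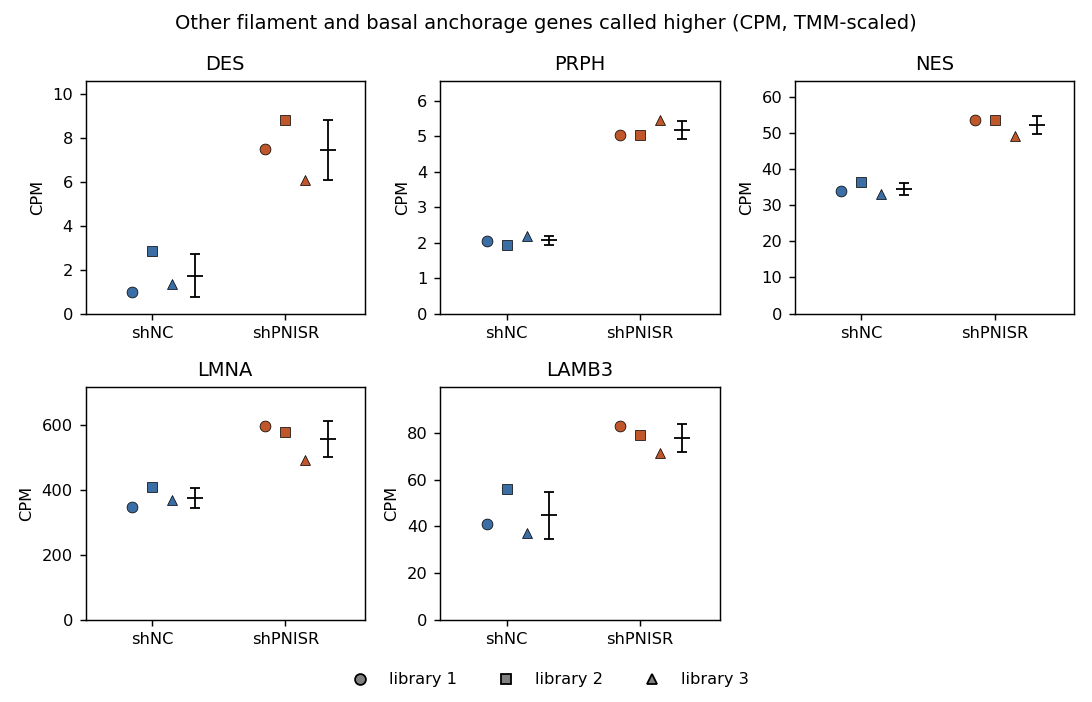
TMM-scaled CPM (vertical axes from 0) in each library of the 4 other filament genes and of LAMB3, all called higher; symbols mark libraries 1 to 3 and bars the mean ± SD (n = 3). In none of the 5 genes do the groups overlap, and DES is at most 2.85 CPM in shNC and at least 6.07 CPM under shPNISR.

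Proteins that bind or modify keratins showed no call by edgeR, DESeq2 or limma voom. Of 16 listed genes 15 were tested, 0 rose and 0 fell (median 0.01). At an unadjusted p under 0.05 there were 2 higher and 2 lower, against 2862 of all 16102 tested genes in either direction. HSPA8, a chaperone, was at 2539 ± 530 CPM in shNC and 2581 ± 355 CPM under shPNISR, and YWHAE, a 14-3-3 protein, at 1253 ± 41.5 and 1249 ± 83.9 CPM (SD, n = 3). Without shNC 2, 1 was called higher and 1 lower, shares near the 7.78% and 4.52% of all tested genes.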

How the data were processed

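The authors deposited 1 table of whole-number read counts per Ensembl gene ID, not normalized, for 6 libraries. Per the submitters' processing notes, the processing named HISAT2 2.0.4, a read aligner, and the build GRCh38. Counter, annotation release and strand: not given in the sources used here. Symbols matched 60463 of 60664 IDs, and 0 count columns were left out. All libraries were kept as separate samples, since within a group they differed beyond sampling noise (chi-square per degree of freedom 9.1 to 20.7).

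Genes were filtered with filterByExpr (minimum count 10, total 15), scaled by TMM factors and compared by edgeR 4.0.16's robust quasi-likelihood test in R 4.3.3, two-sided, with Benjamini-Hochberg adjustment over 16102 genes at 0.05. Standard errors were taken as the fold change over the root of the test's F. Alternatives used other scalings and filters, DESeq2 1.42.0, limma 3.58.1 voom, the replicate number, single libraries left out, a loess correction for GC content and exon length (span 0.4; 99.3% of tested genes had both), and pseudogene counts. Loci, lengths and windows came from GENCODE 29 on GRCh38. Ratios were tested by exact permutation. All 9 keratins and PNISR are named; lists give up to 4 called members, or the 2 most abundant. Members and lists were chosen with earlier results of these data known. Other genes were named after their values were seen. A member of the basal anchorage list is not reported here.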

Additional observations from a re-analysis of the deposited data

How the results depend on the processing

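Of 19 alternatives, KRT19 was above 0 in all and not past the threshold in 6. The number of keratins called higher was 1 with all libraries, and 2 (KRT23 joining KRT19) with no low-count filter, with limma voom, and after the GC and length correction with shNC 2 left out; it was 0 after that correction with all libraries and with 2 libraries per group (without shNC 3 and shPNISR 2). The correction without shNC 2, the 2 libraries per group, the KRT10-AS1 counts and the principal transcript length were chosen after seeing the data. Leaving out each library in turn gave 0 to 2. None was called lower in any setting. KRT7, at -0.01, changed sign with upper-quartile factors (0.013), without shNC 2 (0.008), shNC 3 (0.018), shPNISR 1 (0.023) or shPNISR 3 (0.131), with -0.205 the lowest of the single libraries left out (without shPNISR 2) and -0.242 the lowest of all settings (after the correction without shNC 2), and KRT10 did so after the correction without shNC 2 (-0.062). The KRT8 to KRT18 difference was 0.005 without shNC 1, the highest with a library left out, and -0.023 without shNC 2, the lowest. The cause of these changes was not tested. Over all tested genes, leaving out shNC 2 called 7.78% higher and 4.52% lower, and leaving out shPNISR 1 called 0.811% and 0.183%. With the replicate number as a block KRT19 was at 0.63 (edgeR adjusted p = 0.00853) and no keratin call changed. The deviations of same-numbered libraries correlated at 0.119, -0.0814 and -0.15, and those of differently numbered libraries at -0.226 to 0.307. With 3 libraries per group this cannot show whether a number marks a shared batch. The KRT23 value could not be had with a mean of at least 1 CPM, which leaves it out. In the main fit KRT23 passed the filter only through the shPNISR libraries and so had to be higher there. On data simulated for this comparison, over 15857 genes, 93 of 100 genes with a 2-fold change were recovered. With a 1.5-fold change, near the size fitted for KRT19, 45 of 100 were. Of the genes simulated without a change, 11 were called. The changed genes were drawn from those with higher counts than KRT15, KRT20 and KRT23, so these shares do not cover them.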

Other observations

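Regulators of epithelial genes were read as a further list. It holds transcription factors, the splicing regulators ESRP1 and ESRP2, and TP63, a factor of stratified epithelia that was not tested. Of 16 genes 15 were tested, 0 rose and 1 fell, against 2.3% and 0.832% of all tested genes. Of the 15 fitted values 4 were above 0, against 47.9% of all tested genes (median log2 fold change -0.155, against -0.0127). CDX1, a homeobox factor of the intestine, was at 7.67, 6.73 and 6.73 CPM in shNC and at 3.2, 3.85 and 3.13 CPM in shPNISR, a fall by 1.06 on the log2 scale (SE 0.21, edgeR adjusted p = 0.00798). Its groups do not overlap, and the call ended without shPNISR 1 or shPNISR 3 (adjusted p = 0.0686 and 0.0515). CDX2, its better known relative, did not pass and was at 86.2, 68.3 and 86.3 CPM in shNC and at 92.2, 89.6 and 68.2 CPM in shPNISR.

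Of the 46 other keratins, 20 of them without a read, 4 had groups that did not overlap, all with shPNISR higher, which was noticed after the values were seen. Among all tested genes 11.5% did so in that direction, and nothing is read from the count. KRT81 had 4, 5 and 3 reads in shNC and 20, 16 and 9 in shPNISR, KRT86 had 5, 4 and 2 against 13, 6 and 7, KRT16 had 3, 4 and 5 against 13, 6 and 6, and KRT71 is given above. KRT81 and KRT86 are close paralogs that can share reads, and KRT86 overlaps KRT7 in GENCODE 29. No test was made of KRT81, KRT86 and KRT16, which did not pass the filter.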
